A study of Mus musculus with 12 samples.

Results

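The 6 arrays described here compare neurons of the lateral entorhinal cortex (LEC) from Naglu-/- mice with the same neurons from Naglu+/- littermates. They are the arrays whose titles name the LEC, 6 of 12 in the series, and hold 3 of its 6 mutant and control pairs; the other arrays hold the neighbouring medial entorhinal cortex (MEC). All mice were females of the C57BL/6 strain aged 2 months, and the control was a heterozygote, so that both groups carried at least 1 null allele of Naglu and no wild-type mouse was used. Per region, 500 cell bodies were taken with a laser from sagittal sections of 12 µm stained with cresyl violet, and linear amplification preceded the dye labelling of their RNA. Each pair was hybridised to 2 dual-dye Agilent arrays with Cy3 and Cy5 exchanged. A laser cap can lift material next to a cell body, and whether a LEC pair and the MEC pair with its number share mice is not in the labels.

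Naglu encodes alpha-N-acetylglucosaminidase, a lysosomal enzyme that removes N-acetylglucosamine from the end of heparan sulfate chains. Heparan sulfate is degraded by a fixed sequence of exoenzymes, so that the loss of any of them stops the chain from being shortened and leaves fragments in the lysosome. Loss of NAGLU causes Sanfilippo syndrome type B in people, a childhood dementia, and the null mouse is its model. The lateral entorhinal cortex carries information about objects from sensory association areas to the hippocampus, and microglia, the macrophages of the brain, are known to respond to lysosomal storage in neurons.

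Among the genes with the smallest p above 0, several are known from microglia and macrophages. The promoters of 4 of them are shown because each held the letters AGGAAGT, the kind of sequence bound by ETS factors such as PU.1, the regulator of macrophage genes. The sequences are those of RefSeq on GRCm38.p6, from 250 bases before the annotated start to 20 bases after it, and capitals mark AGGAAGT or its reverse complement. Lyz2, which encodes lysozyme M, lies at chr10:117282253-117282522 on the minus strand, Blnk, a B-cell and macrophage adaptor, at chr19:40994202-40994471 on the minus strand, Ctss, the protease cathepsin S, at chr3:95526536-95526805 on the plus strand, and C1qc, a chain of complement C1q, at chr4:136892895-136893164 on the minus strand.
Lyz2: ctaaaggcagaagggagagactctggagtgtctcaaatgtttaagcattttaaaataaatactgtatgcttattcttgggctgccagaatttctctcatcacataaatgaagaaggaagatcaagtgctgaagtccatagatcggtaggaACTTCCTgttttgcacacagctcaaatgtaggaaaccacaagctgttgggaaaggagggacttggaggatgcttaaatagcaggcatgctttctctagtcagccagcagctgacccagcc
Blnk: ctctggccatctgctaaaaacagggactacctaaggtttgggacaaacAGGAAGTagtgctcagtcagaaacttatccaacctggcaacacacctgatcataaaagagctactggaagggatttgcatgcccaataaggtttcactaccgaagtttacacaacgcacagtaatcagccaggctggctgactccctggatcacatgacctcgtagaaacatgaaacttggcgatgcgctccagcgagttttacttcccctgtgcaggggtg
Ctss: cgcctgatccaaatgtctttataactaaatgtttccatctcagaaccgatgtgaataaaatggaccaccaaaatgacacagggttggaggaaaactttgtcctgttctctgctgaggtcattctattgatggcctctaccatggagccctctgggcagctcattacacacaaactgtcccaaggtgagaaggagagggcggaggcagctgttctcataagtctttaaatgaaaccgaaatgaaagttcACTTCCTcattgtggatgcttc
C1qc: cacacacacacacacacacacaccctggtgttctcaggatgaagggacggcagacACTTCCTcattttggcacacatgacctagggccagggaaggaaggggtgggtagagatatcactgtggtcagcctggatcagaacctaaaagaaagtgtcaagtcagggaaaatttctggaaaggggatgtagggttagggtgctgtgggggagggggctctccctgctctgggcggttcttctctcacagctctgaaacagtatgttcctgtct

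On both strands of the window from 250 bases before to 50 after the start, AGGAAGT stood in 4 of the 9 leading genes above 0 that the table holds, in 1 of 9 below 0, Mrpl16, and in 9.35% of all 32851 promoters. The longer GAGGAAGT stood in 2 of the same 9 promoters, those of Ctss and C1qc, and in 3.2% of all, and the shorter GAGGAA in 3 of 9 and 28.3%. These letters were chosen after the genes were known, and the counts are a description. An interferon-stimulated response element stood in 1 of the 9, Ctss, and in 3.44% of all. The E-box CACGTG, the core of the element that the lysosomal regulator TFEB binds, stood in 2 of the 7 heparan sulfate degradation genes that the table holds, Naglu and Sgsh, in 7.15% of all promoters and in 0 of the 9.

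Before the values, the direction of replicate 2 has to be stated. Each scanner file was set against each column of the authors' table of ratios over 9166 bright spots. The match placed 5 of the 6 LEC files in the column of another LEC array. Its sign opposed the dyes in the labels of the replicate 2 columns and followed those of the replicate 1 and 3 columns. Against the files' own labels, it opposed the dyes in the first array of replicate 2 and the dye-switch of replicate 3, and followed the others. The values below use the assignment and sign of that table. Where the text says "turned", means and list medians have replicate 2 turned as its column labels state. Ratios are log2 of Naglu-/- over Naglu+/-, each pair's value being the mean of its dye-swapped arrays. Where the spot of an array was left out as an outlier, the pair's value is that of its other array. Across genes, pair 2 correlated with pair 3 at r = −0.47 over 10895 genes and at r = −0.40 over all probes, pair 1 with pair 2 at −0.09 and pair 1 with pair 3 at −0.01. Pairs of different mice measured on separate arrays thus ran against each other in pair 2 and pair 3, the direction of replicate 2 is not settled, and with its sign turned the correlation of pairs 2 and 3 is 0.47. The pair 1 and pair 3 correlation does not depend on this sign.

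**Figure D1:**
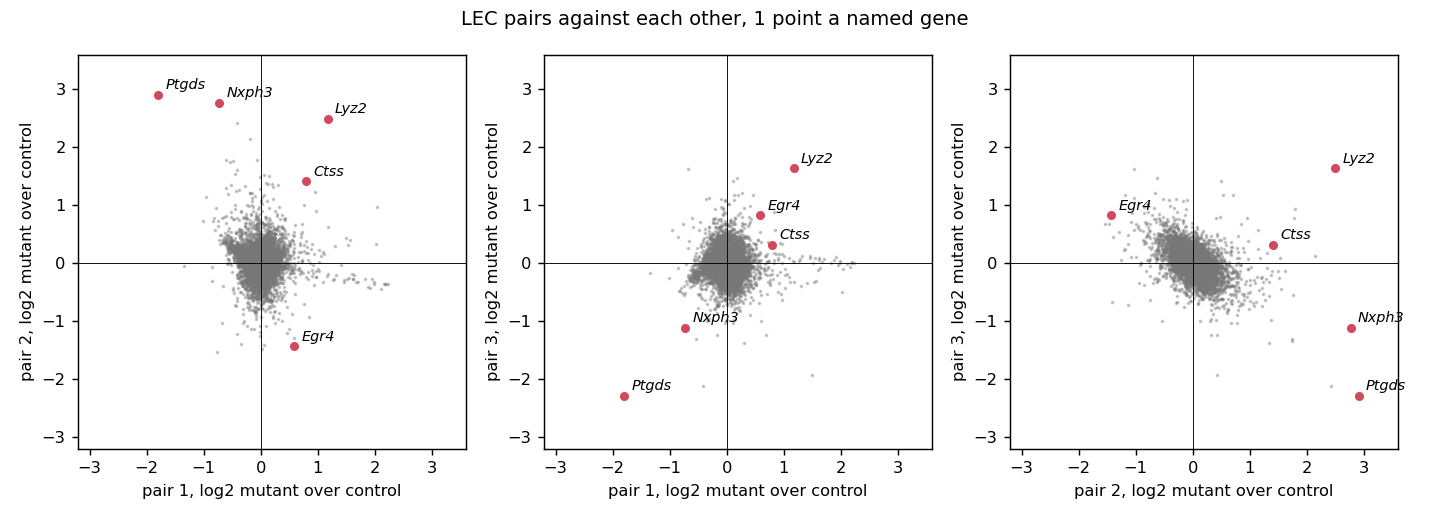
Log2 ratio of Naglu-/- over Naglu+/- in a LEC pair (x axis) against another pair (y axis), 1 grey point a named gene, with 5 genes in red. Pairs 2 and 3 slope downwards (r = −0.47 over 10895 genes), while pairs 1 and 3 show no slope (r = −0.01); Lyz2 lies above 0 in every panel and Ptgds lies below 0 in pairs 1 and 3 and above 0 in pair 2.

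No gene passed limma at an adjusted p under 0.05 (0 of 10896, 0%), with replicate 2 in either direction. At an unadjusted p under 0.05 there were 169 genes (1.55%), 108 above 0 (0.991%) and 61 below (0.56%), and with replicate 2 turned there were 754 (6.92%). A gene kept 1 sign in all 3 pairs in 17.3% of cases, 10.1% above 0 and 7.18% below, and in 30.8% with replicate 2 turned. Pairs 1 and 3, which do not depend on that choice, agreed in sign for 48.1% of genes. Without LEC replicate 2 the count at an unadjusted p under 0.05 was 354, without LEC replicate 3 it was 345, and no gene passed in either case.

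The captured material was checked against neuronal markers first. Of 18 pan-neuronal genes 17 were measured, 14 of them well above background in all 12 LEC readings (6 arrays, each with both dyes), among them Snap25 and Syn1 of the synapse and the microtubule gene Map2. Of 14 markers of excitatory neurons 7 were measured. Slc17a7, the vesicular glutamate transporter of cortical excitatory neurons, and the transcription factor gene Tbr1 did not pass the filter on dim probes. Transcripts of other cells were detectable too: 15 of the 19 measured astrocyte markers, 11 of 19 microglial and macrophage markers and 6 of 11 oligodendrocyte markers were well above background in all 12 readings. In such bulk samples fewer cells of a type and less RNA per cell cannot be told apart.

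Neither probe of Naglu itself gave a usable check of genotype. The brighter one (build mm8, chromosome 11, 100893407 to 100893466) read 0.01, −0.04 and 0.06 in the 3 pairs, or 0.04 in pair 2 when turned, with 3 of 6 mutant and 3 of 6 control readings well above background. The gene's other probe (100889169 to 100889228) was well above background in 0 of 12. Both fell below the filter, and the labels do not give which bases of Naglu were removed in the null allele. The values show no difference between the genotypes that stands above background.

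The other enzymes that take heparan sulfate apart were not shifted together. Of 9 genes 6 were measured, 3 above and 3 below 0, with a median of 0.02 (−0.02 turned) against 0.005 over all genes, and 0 passed. Sgsh, the sulfamidase lost in Sanfilippo type A, read 0.07, 0.09 and −0.38. Hgsnat, the acetyltransferase that prepares the substrate of Naglu, read 0.01, −0.24 and 0.22. In both genes the pairs fell on both sides of 0. Idua, the iduronidase, read 0.74 in pair 1 and −0.17 and 0.04 in the others, Ids, the iduronate sulfatase, 0.02, −0.20 and 0.01, and Gusb, the glucuronidase, −0.14, 0.23 and 0.02. The means of these genes, from −0.07 (SD 0.27, n = 3) for Sgsh to 0.21 (SD 0.48, n = 3) for Idua, were smaller than the spread between pairs. Arsg and Hpse, the endoglucuronidase, were on the array but below the filter.

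Among genes listed for building the chain or carrying it, 24 were measured, 10 above and 14 below 0 (52.4% and 47.6% of all genes). The median was −0.01 (0.00 turned, and 0.03 with median centring, where all genes had 0.03). The lowest of the list was Ust, a uronyl 2-sulfotransferase known to act on dermatan and chondroitin sulfate. It read −0.23, −0.67 and −0.27, below 0 in all 3 pairs and on 0 of 6 arrays above 0, with a mean of −0.39 (SE 0.10; adjusted p = 1, range 0.974 to 1 over its alternatives). Turned, pair 2 stood at 0.67 and the mean at 0.06. The sulfotransferases Hs3st1 (0.00, −0.93 and −0.03) and Hs6st1 (0.09, −1.08 and 0.12) stood far from 0 in pair 2 alone.

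Lyz2 had the highest ratio of the leading genes. Its normalised intensity on the 6 arrays was 503 and 533 in mutant against 232 and 227 in control in pair 1, 739 and 637 against 155 and 95.3 in pair 2, and 339 and 336 against 126 and 93.2 in pair 3. Normalised intensities, here and below, include the offset of 50 that the background correction added to each reading before loess. The mutant channel was the brighter on 6 of 6 arrays, with no overlap between the genotypes, and on 4 of 6 if replicate 2 is turned. The log2 ratios were 1.17, 2.50 and 1.64 (SD 0.67, n = 3), with a mean of 1.77 (3.41-fold). Limma gave this mean an SE of 0.22, an unadjusted p of 8.95e-05 and an adjusted p of 0.975. Throughout, each SE is limma's, from a spread shared with the MEC pairs, and not that of the LEC pairs alone. Turned, the mean was 0.10. With processed signals, in the table's direction, the mean was 2.40 (5.29-fold). Over the alternatives the mean ran from 0.10 to 2.40 and the adjusted p from 0.000727, with the 12 arrays of both regions as units, to 1. The probe (NM_017372) lies on build mm8 at chromosome 10, 116681504 to 116681563.

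The lysosomal protease Ctss had ratios of 0.79, 1.41 and 0.32 (SD 0.55), a mean of 0.84 (SE 0.19). All 6 arrays were above 0, and pair 2 was the highest, so that turning it took the mean to −0.10. C1qc read 0.24, 0.57 and 0.32 (mean 0.38, SE 0.09; −0.01 turned). H2-K1, a class I histocompatibility heavy chain, read 0.29, 0.57 and 0.37 (mean 0.41, SE 0.09; 0.03 turned), with another kept probe at 0.10, −0.05 and 0.08. Blnk read 0.35, 0.43 and 0.47, a mean of 0.42 (SE 0.07; 0.13 turned) with the narrowest spread of the 10 leading genes after Amz1. In Ctss and these 3 genes all pairs lay above 0 in the table's direction, and 0 of the 4 passed limma's adjustment. With processed signals the means were 1.08 for Ctss, 0.75 for C1qc, 0.86 for H2-K1 and 0.91 for Blnk. Trem2, the lipid-sensing receptor of microglia, stood just outside the 10, at 0.27, 0.50 and 0.40 (mean 0.39, SE 0.09; 0.06 turned).

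The other leading genes above 0 have no shared role. Amz1, which encodes a metalloprotease, read 0.40, 0.28 and 0.33 (mean 0.34, 0.15 turned). Epdr1, a secreted and lysosomal ependymin-related protein, read 0.32, 0.55 (from 1 array) and 0.44, but its other kept probe read −0.15, −0.11 and −0.01. Tspan33, a tetraspanin, read 0.20, 0.38 and 0.41 with another probe at −0.14, 0.08 and 0.01, and Vat1l 0.38, 0.47 and 0.80 with another at −0.03, −0.04 and 0.05. Turned, the means of Epdr1, Tspan33 and Vat1l were 0.07, 0.08 and 0.24. For these 3 genes the dimmer probe did not share the size of the one used. Over the 25 named genes that have other kept probes, 17 of 31 such values had the sign of the probe used.

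Below 0, the leading genes were smaller in size. Kalrn, an exchange factor that shapes dendritic spines, read −0.36, −0.22 and −0.33 (mean −0.30, SE 0.07; −0.16 turned), with another probe at 0.07, −0.28 and 0.40. Atp5mpl, a small subunit of ATP synthase, read −0.35, −0.13 and −0.39 (mean −0.29, SE 0.07). Its values in pairs 1 and 2 rest on 1 array each, with the mutant in Cy5. It stayed below 0 when turned (−0.21) and read 0.59 with median centring in place of loess. Acyp2, an acylphosphatase, read −0.14, −0.32 and −0.47 (−0.10 turned). Srd5a1, the steroid 5-alpha-reductase of neurosteroid synthesis, read −0.24, −0.11 and −0.31 (−0.15 turned). Bcl11a, a transcription factor of cortical projection neurons, read −0.14, −0.29 and −0.68, and its other probe 0.07, −0.15 and −0.85 (first probe −0.18 turned). Txn1, the redox protein thioredoxin, read −0.14, −0.17 and −0.35 (−0.11 turned). Mrpl16 of the mitochondrial ribosome (−0.24, −0.47 and −0.19), Tmem42 (−0.19, −0.37 and −0.15, but 0.32, 0.03 and 0.08 at its other probe) and the histone chaperone Hira (−0.16, −0.21 and −0.24) completed the 10. All 10 were below 0 in the 3 pairs, which their choice favours, and with replicate 2 turned 3 of them, Ust, Tmem42 and Mrpl16, had a mean above 0.

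**Figure D2:**
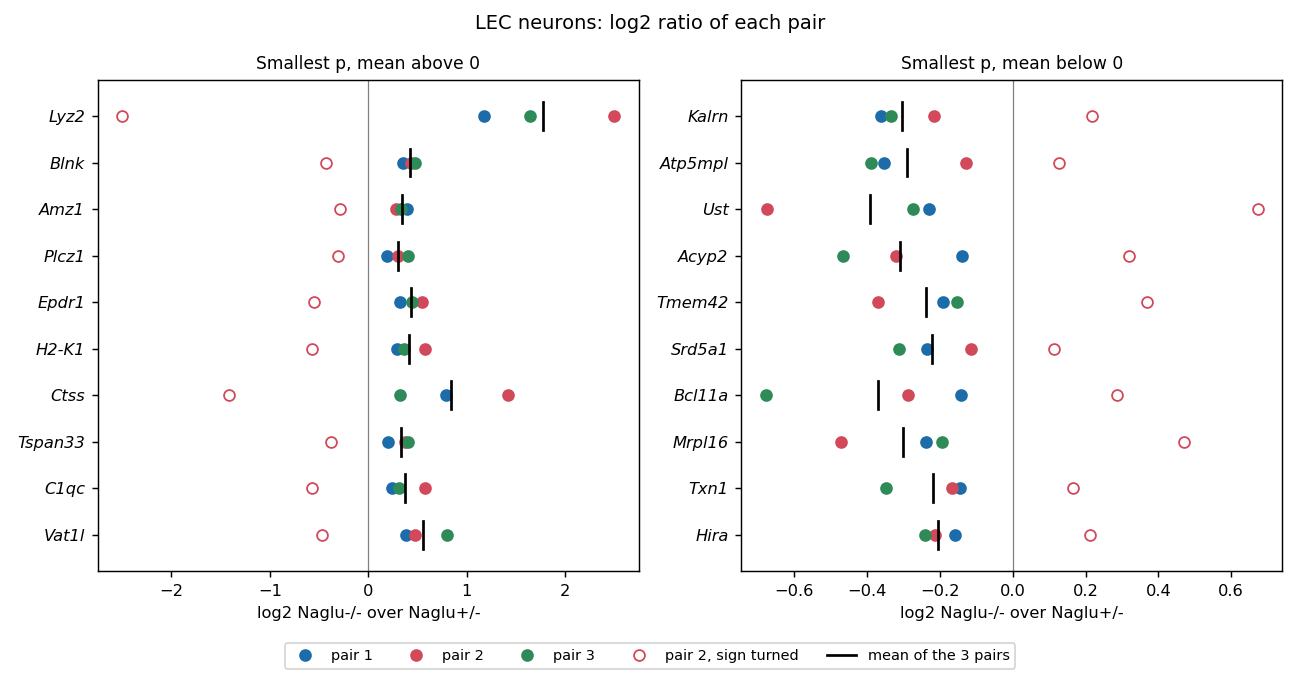
Log2 ratio of Naglu-/- over Naglu+/- (x axis) for the 10 genes of smallest p above 0 (left) and below 0 (right); filled points are the 3 pairs, open points pair 2 with its sign turned, bars the mean. Lyz2 reached 1.17, 2.50 and 1.64, while the genes on the right lay between −0.68 and −0.11 in every pair; the open points fall on the opposite side of 0.

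Genes that do not rest on replicate 2 were then taken from pairs 1 and 3 alone, by the smaller of their ratios. Both pairs were above 0 for 25.2% and below 0 for 22.9% of all genes. The 8 highest were Lyz2, Chgb, Btbd3, Egr4, Rgs8, Dkkl1, Clmp and Rcor1. Chgb, chromogranin B of dense-core vesicles, read 0.83 and 0.88 in pairs 1 and 3, Rgs8, a regulator of G-protein signalling, 0.84 and 0.58, and Egr4, an activity-dependent transcription factor, 0.58 and 0.83. In pair 2, which the choice did not use, they read −0.28, −0.93 and −1.43. Lyz2 was thus the single gene of these 8 with the same sign in pair 2.

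The 8 lowest included Ptgds, Nxph3, Slc13a4, Grp, Mfge8, Mpped1 and Cox6c. Ptgds, the prostaglandin D synthase abundant in meninges, choroid plexus and oligodendrocytes, had a mutant intensity of 268 and 304 against 982 and 1010 in control in pair 1 and of 94.1 and 130 against 460 and 635 in pair 3. In pair 2 the order was the opposite, 966 and 895 in mutant against 143 and 107 in control. Its ratios were −1.80, 2.91 and −2.29, the widest spread of any gene named here (SD 2.87, n = 3), with a mean of −0.39 (SE 0.90) or, turned, −2.33. Nxph3, the synaptic ligand neurexophilin 3, read −0.73, 2.77 and −1.11, and the peptide precursor Grp −0.53, 1.74 and −1.31. Slc13a4, a sulfate transporter of meninges and choroid plexus, read −0.76, 0.73 and −0.54, and Mfge8, which tags cells for engulfment, −0.74, 0.41 and −0.51. All 8 were above 0 in pair 2, so that 15 of the 16 genes chosen on pairs 1 and 3 had the opposite sign there.

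**Figure D3:**
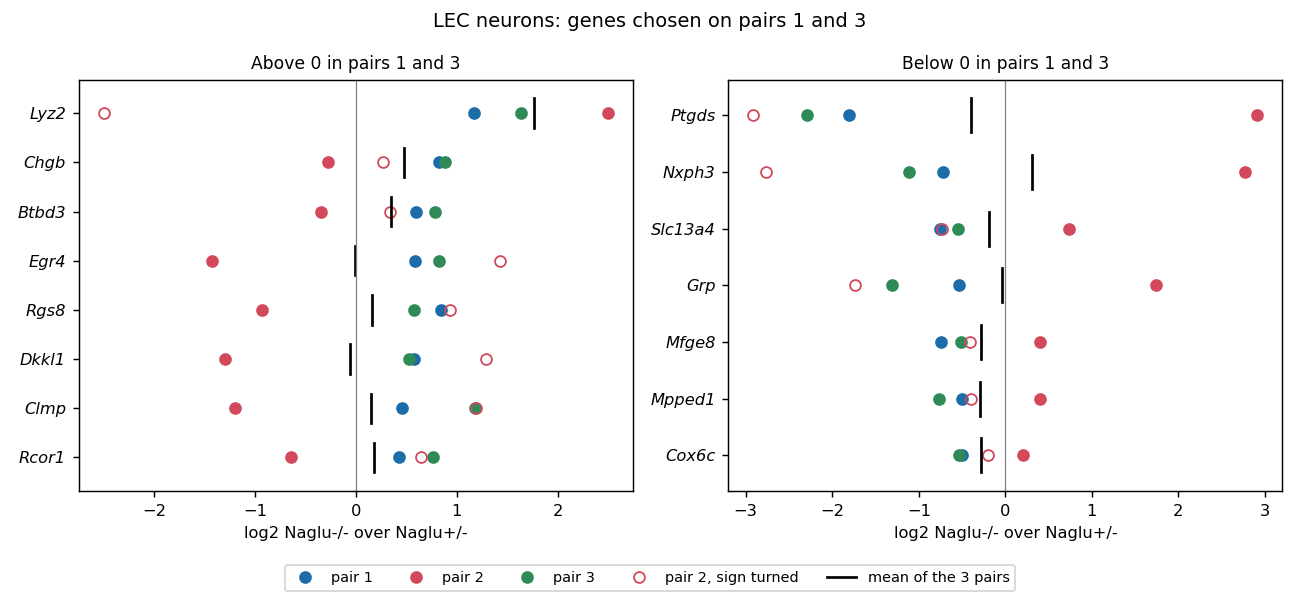
Log2 ratio of Naglu-/- over Naglu+/- (x axis) for the 8 genes highest (left) and 7 of the 8 lowest (right) in pairs 1 and 3; filled points are the 3 pairs, open points pair 2 with its sign turned, bars the mean of the 3 pairs. For each gene plotted other than Lyz2, which read 2.50 in pair 2, the filled point of pair 2 lies across 0 from the other pairs.

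Some of this does not depend on which channel of pair 2 held the mutant. In pair 2 Lyz2 and Ptgds were brighter in the same channel on both arrays. In pairs 1 and 3 Lyz2 was brighter in the channel in which Ptgds was dimmer. No single sign of pair 2 therefore gives both genes 1 direction throughout.

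When replicate 2 follows its column labels, the smallest p belonged to Ptgds (mean −2.33, adjusted p = 0.122, limma) and Rgs8 (0.79, adjusted p = 0.122). Next came Slc13a4 (−0.68, adjusted p = 0.134) and Mgp, the matrix Gla protein of vessels and meninges (−0.59, adjusted p = 0.283, limma). On that side also stood Cidea (−0.61) and the histamine receptor gene Hrh1 (−0.53). Above 0 the smallest p after that of Rgs8 belonged to Rcor1 of the REST corepressor (0.61), Fam3c (0.68), Clmp (0.94) and Mapt, the gene of tau (0.53, with other probes at 0.13, 0.05 and 0.08 and at 0.09, 0.15 and −0.14 in the table's direction). None of these 10 passed the threshold, and these genes were named after their values were seen. In the table's direction the same genes had means from −0.39 to 0.22, each smaller than its SD over pairs.

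Markers of microglia and macrophages stood mostly above 0 in the table's direction, and Lyz2 and Ctss carried most of the difference in summed signal. Of 33 listed, 19 were measured, 16 above 0 (52.4% of all genes were), 10 of them above 0 in all 3 pairs (background 10.1%), with medians of 0.08, 0.15 and 0.10 in pairs 1 to 3 against −0.005, 0.01 and 0.01 over all genes. At an unadjusted p under 0.05 there were 6, all above 0 (0.991% of all genes), against 1 with replicate 2 turned (6.92% of all genes), and 0 passed the adjustment in either. The list was led by Lyz2, Ctss, Blnk, Trem2 and C1qc, and after them came Tyrobp, the signalling adaptor of Trem2 (0.16, 0.10 and 0.32). At the other end of the list stood Csf1r (−0.09, 0.14 and −0.18), P2ry12 (−0.08, 0.15 and −0.20), Cx3cr1 (−0.10, 0.09 and 0.11) and Tmem119 (−0.15, 0.09 and 0.03), with pairs on both sides of 0; these were named after their values were seen. Turned, the median was −0.01 and 9 of 19 were above 0. With processed signals the list's median was 0.17, where all genes had 0.02. The summed normalised intensity of the 19 was 2116 to 3365 in mutant and 1692 to 2271 in control, higher in mutant on all 6 arrays in the table's direction. Such sums count the offset of 50 once per marker, so the proportion between genotypes is not that of the signal alone. Without Lyz2 and Ctss the sum of the other 17 was higher in mutant on 4 of 6 arrays, with 1753 against 1754 on an array of pair 1 and 1548 against 1561 on an array of pair 3.

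In the endolysosomal lists the highest members were proteases and a membrane protein. Of 14 measured cathepsins, legumain and cystatins 9 were above 0 (52.4% of all genes were), with medians of 0.04, 0.17 and −0.02 (mean over pairs 0.02, turned −0.04). Beside Ctss stood Ctsb (0.14, 0.49 and 0.26; mean 0.30, −0.03 turned) and Ctsd (0.10, 0.48 and 0.16; mean 0.24, −0.07 turned), the main lysosomal cysteine and aspartic proteases. The inhibitor Cst3 read −0.55, 0.61 and −0.24. Among 21 other hydrolases and activators the median was 0.02. Of these, 14 were above 0 (52.4% of all genes were), 4 of them in all 3 pairs (background 10.1%). These included Ppt1, the thioesterase lost in infantile Batten disease (0.12, 0.23 and 0.10, with 3 other probes at means from −0.01 to 0.04), and the peptidase Tpp1 (0.06, 0.23 and 0.12). Among 15 lysosomal membrane proteins the median was 0.04, with Lamp2 at 0.24, 0.46 and −0.08 and Laptm4a at 0.19, 0.30 and 0.02. Of 12 subunits of the proton pump, 5 were above 0 (median −0.002, above 0 in each of 4 other scalings). In these 4 lists 2 genes had an unadjusted p under 0.05 (1.55% of all genes did), Ctss and Ctsb, and 0 passed.

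Complement, class II and Fc receptor genes had 8 of 19 measured, 5 above 0 (median 0.02), led by C1qc, while C1qb read −0.06, −0.02 and 0.20. Class I and interferon response genes had 12 of 30 measured, led by H2-K1 (median 0.05, turned 0.03). Of the 12, 10 were above 0 (52.4% of all genes were) and 4 above 0 in all 3 pairs (background 10.1%).

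Markers of astrocytes and of blood, choroid plexus and meninges set pair 2 apart from the others. Of 19 astrocyte markers 18 were above 0 in pair 2, 4 in pair 1 and 5 in pair 3, with medians of 0.69, −0.08 and −0.15 in that order. Of all 10896 genes 5773, 5290 and 5859 were above 0 in those pairs. Glul, glutamine synthetase, read −0.45, 0.94 and −0.57, Slc1a2, the main glutamate transporter, −0.08, 0.81 and −0.43, and the connexin gene Gjb6 −0.24, 1.00 and −0.50. None of the 19 had 1 sign in all 3 pairs in the table's direction (background 17.3%). Turned, 18 of 19 means were below 0 (median −0.30). At an unadjusted p under 0.05 there were 0 in the table's direction (1.55% of all genes) and 9 turned (6.92%), and 0 passed in either. Their summed intensity in pair 2 was 12260 and 12750 in mutant against 7380 and 7502 in control, and in pair 3 it was 5018 and 5686 against 5823 and 7139.

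Meningeal and choroid plexus genes did likewise. Dcn, decorin of the meninges, read −0.42, 2.42 and −2.12 and Igf2 −0.16, 1.12 and −0.23. The list's medians were −0.16, 0.15 and −0.08 in the 3 pairs. Of 13 measured members 11 were above 0 in pair 2, 2 in pair 1 and 5 in pair 3 (5773, 5290 and 5859 of all 10896 genes). All 13 had a mean below 0 when turned (5379 of all genes). The summed intensity was 3942 and 3708 in mutant against 1657 and 1591 in control in pair 2, and 1158 and 1228 against 2085 and 2625 in pair 3. Ptgds belongs to this list. Without Ptgds and Dcn the sums of the other 11 were 1587 and 1438 against 1238 and 1243 in pair 2, 915.1 and 893.8 against 983.8 and 1106 in pair 3, and 1080 and 1053 against 1031 and 1086 in pair 1. The haemoglobin gene Hba-a1 read −0.15, −0.09 and −0.08, and its other probe 0.05, 0.05 and −0.04. Ttr, the choroid plexus transthyretin, was well above background in 4 of 6 mutant and 1 of 6 control readings. These lists moved with the direction of pair 2 that sets Ptgds and Slc13a4, and their part in those results was not tested. Oligodendrocyte markers had a median of 0.01 over 11 measured (−0.13, 0.14 and −0.03 by pair, with 4, 8 and 4 above 0; −0.12 turned) and vessel markers of 0.02 (12 measured).

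**Figure D4:**
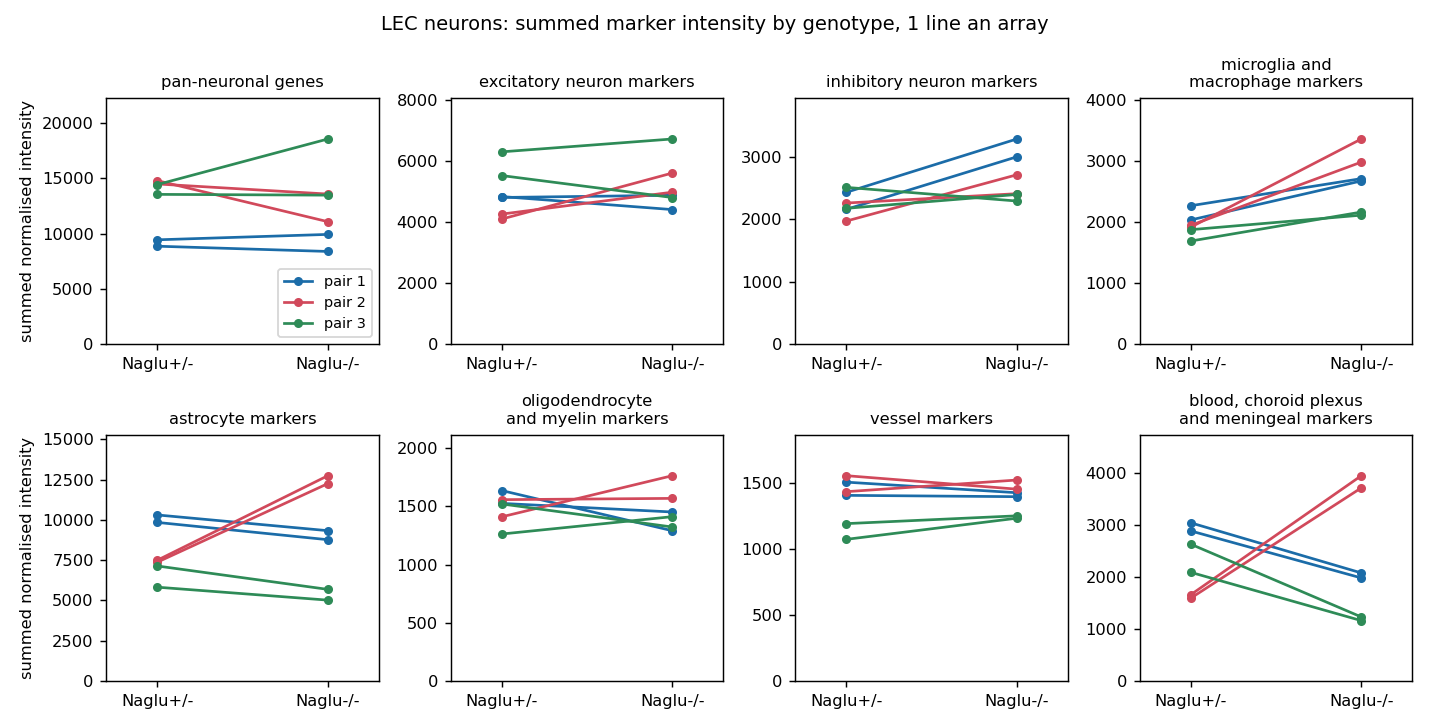
Summed normalised intensity of the measured markers of 8 cell types (y axis, from 0) in Naglu+/- and Naglu-/- LEC samples (x axis), 1 line an array, coloured by pair in the table's direction. Each sum includes the offset of 50 added to the reading of every marker. The microglial sum slopes upwards on all 6 arrays, and on 4 without Lyz2 and Ctss, while astrocyte and meningeal markers slope upwards in pair 2 (astrocytes 7380 to 12260 and 7502 to 12750) and downwards in pairs 1 and 3.

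Subunits of the mitochondrial respiratory chain stood mostly below 0, by small amounts. Of 35 measured subunits of complex I, the NADH dehydrogenase, 32 had a mean below 0 where 47.6% of all genes did, and 11 were below 0 in all 3 pairs (background 7.18%). The medians were −0.14, −0.04 and −0.04 in pairs 1 to 3. Ndufb4 read −0.17, −0.29 and −0.17, Ndufab1, the mitochondrial acyl carrier protein, −0.18, −0.09 and −0.34, and Ndufs5 −0.30, −0.04 and −0.17. At an unadjusted p under 0.05 there were 2, both below 0 (0.56% of all genes), and 0 passed. With median centring in place of loess 15 of 35 were above 0 and the median was −0.02. In that scaling 7530 of all 10896 genes were above 0, with a median of 0.03.

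Of 12 subunits of complex IV, cytochrome c oxidase, 11 had a mean below 0 (47.6% of all genes did), with medians of −0.22, −0.16 and 0.04. Cox5a was below 0 in all 3 pairs (−0.18, −0.21 and −0.27), while Cox6a1 (−0.40, −0.34 and 0.12) and Cox7b (−0.33, −0.32 and 0.11) were above 0 in pair 3. Complexes II and III had 10 of 14 below 0 (47.6% of all genes were), with a median of −0.07, or 0.01 with median centring. In them cytochrome c, Cycs, stood at −0.09, −0.13 and −0.35, with other probes at means of 0.00 and −0.05. In this list Uqcrh read 1.61 in pair 1 alone. ATP synthase had 14 of 16 below 0, medians of −0.06, −0.04 and −0.12, and its inhibitor Atpif1 at −0.32, −0.11 and −0.35. With median centring complex IV had 2 of 12 above 0 (median −0.06, from −0.16) and ATP synthase 8 of 16 (median −0.002, from −0.08). All genes had 7530 of 10896 above 0 and a median of 0.03 in that scaling. With replicate 2 turned the members below 0 were 22 of 35 in complex I, 7 of 12 in complex IV, 7 of 14 in complexes II and III and 11 of 16 in ATP synthase.

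The median of oxidative stress defence genes was −0.05, 0.00 turned and −0.002 with median centring, where all genes had 0.03. Of 27 genes 18 were below 0 (47.6% of all genes were), 5 of them in all 3 pairs (background 7.18%). Beside Txn1 these were its mitochondrial form Txn2 (−0.20, −0.20 and −0.12), the haem oxygenase Hmox1 (−0.12, −0.10 and −0.07), the peroxiredoxin Prdx3 (−0.08, −0.22 and −0.02) and the glutathione peroxidase Gpx1 (−0.08, −0.09 and −0.02). Gclc, which limits glutathione synthesis, read 0.12, 0.15 and 0.20. Genes of mitochondrial DNA upkeep and biogenesis had a median of 0.002 over 13.

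**Figure D5:**
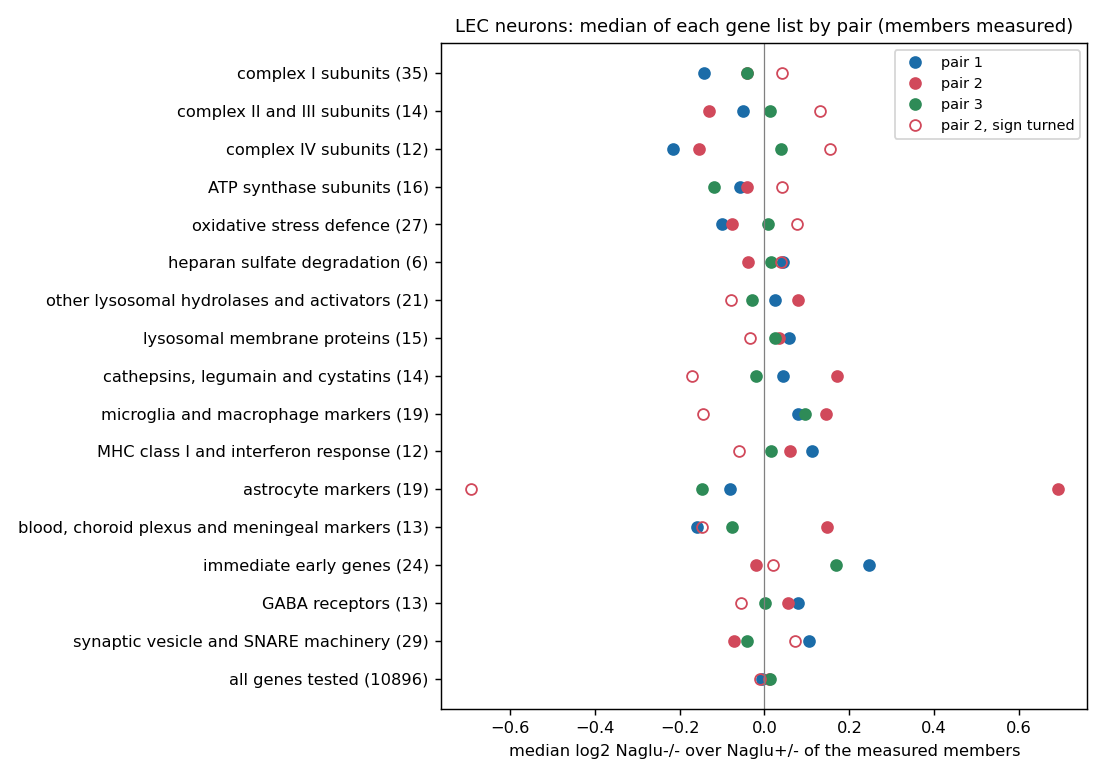
Median log2 ratio of Naglu-/- over Naglu+/- (x axis) of the measured members of 16 gene lists and of all genes tested, by pair; open points are pair 2 with its sign turned, and numbers in brackets count members. Complex I lies below 0 in each pair, microglial markers above 0 in each, and astrocyte markers reach 0.69 in pair 2 against −0.08 and −0.15; all genes lie within 0.02 of 0.

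Immediate early genes, which neuronal activity switches on, had medians of 0.25, −0.02 and 0.17 in the 3 pairs. In that order 18, 11 and 20 of 24 were above 0 (5290, 5773 and 5859 of all 10896 genes). In both pairs 1 and 3, 16 of 24 were above 0 (background 25.2%). Dusp1 read 1.00, −0.09 and 0.13, Arc 0.79, −0.24 and 0.28, Nr4a1 0.59, −0.24 and 0.36, and Egr2 0.39, −0.34 and 0.44. Turned, pair 2 took the same side as the others for these 4 genes, and 19 of 24 means were above 0 (median 0.12). Ier5 had the highest mean of the list (0.26, 0.42 and 0.50) and Nr4a2 the lowest (−0.37, 0.01 and −0.45). At an unadjusted p under 0.05 there was 1 of the 24 in the table's direction (1.55% of all genes) and 6 turned (6.92%), and 0 passed in either.

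The lists of neuronal genes did not share 1 direction. Pan-neuronal genes stood mostly below 0 by small amounts, with 5 of 17 above 0 (52.4% of all genes were). Their median was −0.02, and −0.04, −0.13 and −0.03 in the 3 pairs. With median centring it was 0.01, where all genes had 0.03. Turned, it was 0.025 with 9 of 17 above 0. Syt1, the calcium sensor of vesicle release, was below 0 in all 3 pairs (−0.18, −0.27 and −0.31, the last from 1 array). Its other probes did likewise, at means of −0.16 and −0.19. Synaptic vesicle and SNARE genes had a median of −0.005 over 29, with the complexin Cplx2 highest at 0.29, 0.85 (from 1 array) and 0.68. Its other probe read −0.17, 0.12 and 0.12. Postsynaptic genes had 12 of 26 above 0, and glutamate receptors 6 of 14. GABA receptors had a median of 0.07 (turned 0.01), with 10 of 13 above 0 (52.4% of all genes were). In all 3 pairs 4 were above 0 (background 10.1%), among them Gabrd, the extrasynaptic delta subunit (0.86, 0.01 and 0.15). Markers of inhibitory neurons had 11 of 15 above 0 in pair 2 and 6 in pair 1 (5773 and 5290 of all 10896 genes), with Sst, somatostatin, at −0.95, 1.15 and 0.58.

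Markers of entorhinal and cortical layers had 17 of 25 below 0 (47.6% of all genes were), with a median of −0.09 (turned 0.01). The lowest was Trps1, a GATA-type repressor, at −0.17, −1.13 and −0.71. Reln, the secreted protein of superficial entorhinal stellate cells, read 0.61, −0.53 and −0.99, and Calb1 of superficial pyramidal cells −0.03, 0.07 and −0.52. Rspo2 (−0.35, 0.30 and −0.99), Crym (−0.24, −0.02 and −0.53) and Tle4 of deep layers (−0.03, 0.77 and −1.03) were lowest in pair 3. The list's medians by pair were −0.03, −0.01 and −0.08, close together although these members, named after their values were seen, were not.

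The remaining lists had medians between −0.007 and 0.06. Amyloid precursor and secretase genes had 10 of 15 above 0 (52.4% of all genes were, median 0.06), led by Trem2, which that list shares with the microglial one. Glycolysis genes had 16 of 24 above 0 (52.4% of all genes, median 0.05, turned −0.04), among them Pfkp (0.29, 0.08 and 0.37). Ganglioside genes had a median of 0.001 with the sialyltransferase St3gal2 at 0.33, 0.10 and 0.22, neuropeptide precursors 0.04 with the convertase Pcsk2 at 0.14, 0.16 and 0.34, and cholesterol genes 0.04. Autophagy, chaperones, proteasome, cytosolic ribosome, tubulins and motors, growth factor signalling, tau and its kinases and voltage-gated channels had medians from −0.007 to 0.02, next to 0.005 over all genes. For the cytosolic ribosome the medians by pair were −0.13, 0.14 and −0.03, with 14, 54 and 34 of 75 members above 0. Of all 10896 genes 5290, 5773 and 5859 were. Turned, the ribosome median was −0.11 with 55 below 0. For chaperones the medians by pair were 0.02, 0.13 and −0.10, and turned −0.06 with 26 of 36 below 0.

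A few genes crossed the detection limit. Of 9560 named genes, 12 (0.126%) were well above background in at least 5 of 6 LEC readings of a genotype and in at most 1 of the other, and all 12 were detected in mutant. Plcz1, a phospholipase known from sperm, was detected in 5 of 6 mutant and 0 of 6 control readings. On the mean it was 1.20-fold higher in mutant when the control is set at the lowest signal that counts as above background. Its measured means were 6.15 and 5.85 on the log2 scale (limma, adjusted p = 1). It was brighter in mutant on the 3 arrays with the mutant in Cy5 and dimmer on the other 3 (61.2 against 61.5, 59.1 against 73.3 and 63.4 against 70.4). Olfr996, an odorant receptor gene, had the same readings. Its mean was 1.03-fold higher in mutant (log2 ratio 0.05, SE 0.07), with 3 of 6 arrays above 0. Setting the control at that lowest signal left its mean at 6.08. Inhba, the activin subunit induced by neuronal activity, had 5 against 1 readings and ratios of 0.15, 0.34 and 0.19, and Nr2f1, a nuclear receptor that patterns the cortex, 5 against 1 and 0.07, 0.09 and 0.10. Turned, Plcz1 had 3 and 2 readings, Olfr996 3 and 2, Inhba 3 and 3 and Nr2f1 4 and 2, while Cyp26b1, which degrades retinoic acid, and Sox8 kept 5 and 1. Signals this close to background carry little of a ratio.

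Compared with MEC, the mutant effect in LEC differed in 0 of 10896 genes at an adjusted p under 0.05 (0%) and in 59 at an unadjusted p under 0.05 (0.541%). All LEC arrays were scanned on 1 day and all MEC arrays on another, so scan day and region cannot be told apart. Arid5b, a chromatin cofactor gene, read −0.14, 0.06 and −0.05 in LEC and −0.46, −0.70 and −0.55 in MEC, a difference of 0.53 (SE 0.10, unadjusted p = 0.00149, adjusted p = 1), but its other probe read −0.39, 0.42 and −0.29 in LEC. Tfam, which packages mitochondrial DNA, read −0.16, 0.16 and −0.17 in LEC and −0.48, −0.62 and −0.56 in MEC. In these genes, and in 9530080O11Rik, the MEC pairs were all lower than the LEC pairs. With replicate 2 of both regions turned the differences were 0.02 for Arid5b and −0.02 for Tfam.

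In the other direction Srd5a1 was below 0 in all LEC pairs and at 0.17, 0.16 and 0.19 in MEC, a difference of −0.39 (SE 0.09, unadjusted p = 0.00322, adjusted p = 1) that stayed at −0.21 when turned. Ust read 0.13, −0.02 and 0.13 in MEC against −0.23, −0.67 and −0.27 in LEC (difference −0.47, turned −0.04). Pdlim1, a cytoskeletal adaptor, read 0.17, 0.04 and 0.54 in LEC and −0.28, −0.22 and −0.21 in MEC. In LEC it was well above background in 6 of 6 mutant and 3 of 6 control readings. In the table's direction Lyz2 averaged 1.77 in LEC and 1.79 in MEC (difference −0.02, SE 0.31; −0.48 turned), and Ctss 0.84 and 0.78 (difference 0.06, SE 0.27; −0.54 turned). With replicate 2 of both regions turned, 970 genes had an unadjusted p under 0.05 and 0 passed, the smallest adjusted p being 0.0527.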

How the data were processed

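The labels describe LEC and MEC neurons from 3 Naglu-/- and Naglu+/- pairs per region on 12 dual-dye arrays. The deposited scanner files hold intensity per dye (mean, background and processed) and log10 ratios with Cy5 as the numerator; per the file headers, Agilent Feature Extraction 9.5.1.1 made them, while the submitters' processing notes name 8.5.1.1. The authors' table holds log2 ratios, matched here to the scanner files by correlation (0.995 to 0.999). Its scale follows from slopes near 1 and its column medians run from −0.4 to 0.4; how it was centred and which genotype is its numerator are not stated, and mutant over control is taken from the dyes of replicates 1 and 3. Probes are on build mm8; names follow RefSeq of GRCm38.p6 (accessions named 23477 of the 41174 probes, symbols 6678 and older symbols 2891, which leaves 8128 unnamed). With limma 3.58.1 in R 4.3.3, background was corrected by normexp (offset 50), dyes by loess, and outlier spots left out. Plots were drawn with matplotlib. A probe was kept if 4 or more of the 6 readings of any region and genotype were well above background (12987), the brightest per gene (10896 genes, 9560 named). For 6 genes a LEC pair was missing and the other pairs were used.

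Limma gave each region a mean over its 3 pairs and shared the spread over 6 pairs; p-values are two-sided, adjusted by Benjamini-Hochberg at 0.05, and measure only the spread between these samples. Cy3 was the brighter dye on the LEC arrays: its median spot signal was 79.3 to 92.5, with 48.2% to 62% of spots well above background, against 49.3 to 54.9 and 24.3% to 30.4% for Cy5; the number of arrays limits the precision. The script was tested on simulated data. Genes named are the 10 of smallest p in each direction, the 8 in each direction by the smaller ratio of pairs 1 and 3, the member of largest mean with 1 sign in 3 pairs in each of 41 lists, genes detected in a single genotype, 5 in each direction for LEC minus MEC, Naglu, Lyz2, the heparan sulfate degradation genes and list extremes; others were named after their values were seen. The members, lists and rules were chosen with earlier results of these data known. Lists are described by counts and medians, with no test. A few named genes are not reported here.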

Additional observations from a re-analysis of the deposited data

Results flagged for a closer look

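In 4 named genes every LEC pair lay on one side of 0 and every MEC pair on the other, which 0.79% of all genes did. Srd5a1, Ppfibp2 and Pdlim1 were named for a small p of LEC minus MEC, and Cycs for 1 sign in all LEC pairs. That choice favours the pattern, so the values that follow are a description. The difference LEC minus MEC was −0.39 for Srd5a1, −0.35 for Ppfibp2, −0.23 for Cycs and 0.49 for Pdlim1. Limma's test of that difference gave unadjusted p-values of 0.00322, 0.0136, 0.0525 and 0.0101 and an adjusted p of 1 in each case. Ppfibp2, a liprin that links receptors to the cytoskeleton, read −0.34, −0.16 and −0.06 in LEC and 0.16, 0.26 and 0.08 in MEC. It lay near the detection limit, well above background in 3 of 6 mutant and 6 of 6 control LEC readings. Pdlim1 did too, with 6 of 6 mutant and 3 of 6 control readings. Cycs read −0.09, −0.13 and −0.35 in LEC and 0.07, 0.03 and 0.02 in MEC. Its other kept probes stood above 0 in LEC pair 1, at 0.215 and 0.13, and below 0 in LEC pairs 2 and 3. With replicate 2 of both regions turned the differences were −0.21 for Srd5a1, −0.07 for Ppfibp2, −0.12 for Cycs and 0.32 for Pdlim1.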

How the results depend on the processing

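The main limits are the sign of replicate 2, 3 pairs per region, no check of genotype by Naglu, and signals near background. The count of genes passing in LEC was 0 in every alternative run except the 12 arrays as units, where 1 passed, Lyz2. That run took the pair as a random block with an estimated correlation within pairs of 0.0186. Both arrays of a pair thus counted almost as separate pairs. Genes at an unadjusted p under 0.05 in LEC numbered 169, against 754 with replicate 2 turned, 102 with processed signals, 19 with median centring, 101 with the authors' table, 692 of 27569 without the filter, 94 of 7445 with all 12 LEC readings above background, 296 with the 12 arrays as units, and 153 to 354 without 1 LEC replicate. For LEC minus MEC they numbered 59, against 970 turned, 680 with files and dyes as labelled, 6 with median centring, 398 without the filter, 30 with all 12 readings, 135 with the 12 arrays as units, and 102 to 137 without 1 LEC replicate. With the LEC pairs fitted alone, 150 genes had an unadjusted p under 0.05 in LEC and 0 passed. Turned, Ctss read −0.10, C1qc −0.006, Ust 0.057, Tmem42 0.009, Mrpl16 0.014 and Tfam in LEC minus MEC −0.021. Plcz1 read −0.018 with files and dyes as labelled, Atp5mpl 0.59 with median centring, and Tmem42 0.14 with all 12 readings, where its other probe is used; the cause of the other changes was not tested. Among the 20 leading genes, 289 values under the alternatives kept direction and side of the threshold, 8 changed sign and 1 crossed the threshold. With the replicate block 116 genes had an unadjusted p under 0.05 in LEC and 45 in LEC minus MEC, and 0 passed; same-numbered pairs of LEC and MEC deviated at r = −0.18, −0.001 and −0.36, none over 0.1, so the block is given as an alternative and whether the numbers mark shared mice is not settled. A slide or scan block was not run, since each array is its own slide and each region was scanned on a day of its own.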

Other observations

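A set of genes stood apart in pair 1. Of the named genes, 35 had a log2 ratio over 1 on both arrays of pair 1, and 31 of these lay within 0.4 of 0 in pair 3. The 31 genes come from 15 chromosomes and have no shared role: they include the keratin Krt8, the milk protein kappa-casein, Csn3, the natural killer receptor Klrb1c, the endoderm factor Sox17, the serotonin receptor Htr3a and the kinase-like Camkv. Their ratios in pair 1 ran from 1.17 to 2.24 with a median of 1.62. In pair 2 the median was −0.27, with 26 of 31 below 0, and in pair 3 it was 0.01. In the MEC pairs the medians were 0.01, −0.39 and 1.01. Htr3a, for example, read 2.10, −0.44 and −0.00 in LEC and −0.03, −0.52 and 1.26 in MEC, and Klrb1c 2.24, −0.36 and 0.00 in LEC and 0.07, −0.38 and 1.01 in MEC. Htr3a, Camkv and Uqcrh, which are the highest members of the inhibitory, excitatory and complex II and III lists, belong to this set, which was picked after its values were seen.

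Mplkip read 7.46 on the array of pair 1 with the mutant in Cy5 and 0.12 on its dye-swapped partner, with −0.30 and 0.31 in pairs 2 and 3, so that its pair 1 value rests on 1 array.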
